A study of Mus musculus with 4 samples.

Results

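The RNAs described here encode 8 mouse proteins that bind messenger RNA and take part in its transport, storage or decay: Fmr1, Fxr1, Fxr2, Stau1, Stau2, Pum2, Ybx1 and Khsrp. They were chosen by gene symbol. Every probe set, the group of short probes that measures 1 transcript region on the array, was taken where the platform annotation gave exactly 1 symbol and that symbol was 1 of the 8. This gave 24 probe sets among the 34958 with 1 symbol, or 8 of 18194 genes. The samples came from NIH/3T3 cells, an immortalized mouse embryonic fibroblast line, here without a transgene, knockdown or other genetic change in the labels. In both groups the cells were starved of serum overnight and seeded on a porous membrane of 24 mm diameter coated with fibronectin (5 mg/ml per the labels). They were left to spread for 2 h and then given lysophosphatidic acid (LPA) at 150 ng/ml in the lower chamber for 1 h. LPA is a serum lipid that draws fibroblasts to extend protrusions, called pseudopodia, through the pores. The first group held the RNA of these pseudopodia, taken from below the membrane, and the second that of the cell bodies left above it, which include the nuclei. Per the labels, the samples of both groups were fixed in 0.3% formaldehyde for 10 min, with reversal at 70 °C for 45 min. Each group had 2 arrays, numbered by replicate in the sample titles and described as independent samples. Nothing says that they came from separate cultures, so the p-values measure only the spread between these samples. Cells without LPA were not analysed here.

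Messenger RNAs that are delivered to the edge of a cell travel in granules, in which RNA-binding proteins package the message, hold back its translation and link it to motors on microtubules. Fmr1 encodes FMRP, the protein lost in fragile X syndrome, and Fxr1 and Fxr2 encode its close relatives. Staufen proteins (Stau1 and Stau2) bind double-stranded RNA, Pum2 is a Pumilio repressor that binds sites in the 3' ends of messages, Ybx1 encodes the cold-shock domain protein YB-1, which coats messenger RNA in bulk, and Khsrp encodes a KH-domain protein that binds AU-rich elements and promotes decay. The arrays measured the RNAs that encode these proteins, and not the proteins, their granules or the messages they carry.

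Each array gave 1 MAS5 signal (an intensity in arbitrary units) for each of 45101 probe sets, with medians between 29.8 and 33.3. All arrays had been scaled to 1 mean, so a difference is a change in a gene's share of the RNA of its fraction, and less RNA per cell cannot be told apart from fewer cells or protrusions collected. A positive difference means more signal in pseudopodia, on the log2(signal + 32) scale after scaling to a trimmed mean of 500, and is given with the standard error of the limma fit and n = 2 arrays per group. That scale understates changes of dim probe sets. Brightness serves here to pick 1 probe set for a gene, since probes bind unequally and signals of different probe sets do not rank RNA levels. As a check of the fractions, Kif1c, a kinesin RNA known from protrusions, stood at 2.14 ± 0.22 (adjusted p = 0.0138), and the nuclear RNA Neat1 at -2.17 ± 0.21 (adjusted p = 0.0131). The tests were chosen with earlier results of these data known, so these values are not an independent check. Of 5 fibroblast markers 4 passed the filter on dim probe sets, Thy1 being the exception at 5.7 to 56.3. Of 9 markers of leukocytes, epithelium and endothelium 5 passed it. These were Krt8 at 354.5 to 442.4, Epcam at 154.9 to 333.5, and Cdh1, Cd68 and Kdr at 98.4 or below. Ptprc, Cd52, Cdh5 and Pecam1 did not pass it and stood at 38.3 or below on every array. Of the markers of either kind that passed the filter, none differed past the threshold between the fractions. The markers below the filter were not tested. The ratio of 3' to 5' beta-actin control signal, a sign of RNA integrity, was 1.55 and 1.89 in cell bodies against 1.77 and 3.41 in pseudopodia, highest on the pseudopodia replicate 2 array. Pseudopodia over cell body, that ratio was 1.14 in the replicate 1 pair and 1.81 in the replicate 2 pair, where the same ratio for Gapdh gave 1.05 and 1.06. The part of the beta-actin ratio in the results below was not tested.

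None of the RNAs for these 8 proteins passed the test for a difference between pseudopodia and cell bodies, and the estimates pointed both ways. On each gene's brightest probe set the RNAs of Fxr1, Fmr1, Stau2, Ybx1, Pum2 and Khsrp stood higher in pseudopodia, by 0.36 to 0.72 on the log2 scale, and those of Fxr2 and Stau1 lower, by -0.47 and -0.85. Among probe sets that passed the filter on dim values, Stau1, Stau2, Pum2, Ybx1 and Khsrp each had another that pointed the other way. In Stau2 and Pum2 it did so only slightly, at -0.06 and -0.04. For Khsrp the choice of the brightest was narrow, as a probe set of nearly equal brightness stood at 0.01. Of the 24 probe sets 21 passed the filter on dim values, which kept the brighter 22519 of all probe sets. In limma, 0 of these 21 passed an adjusted p of 0.05, adjusted over all probe sets kept, in either direction. Over all probe sets kept, 1.08% passed as higher and 3.32% as lower. At an unadjusted p under 0.05 there were 4 of the 21, and 4956 of the 22519.

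Without regard to a test, the pseudopodia arrays both lay above both cell body arrays in 8 of the 21 probe sets, and both below in 2, where the shares over all probe sets kept were 24.7% and 28.2%. The other 11 overlapped. Only 1 probe set, a dim one of Ybx1 that was lower, differed by 1.5-fold or more between every pseudopodia array and every cell body array, against 2.79% of all probe sets higher and 7.86% lower by that rule. The median over the 21 was 0.24 and over all probe sets kept -0.03. These counts cover the probe sets that passed the filter, and describe them without a test.

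**Figure D1:**
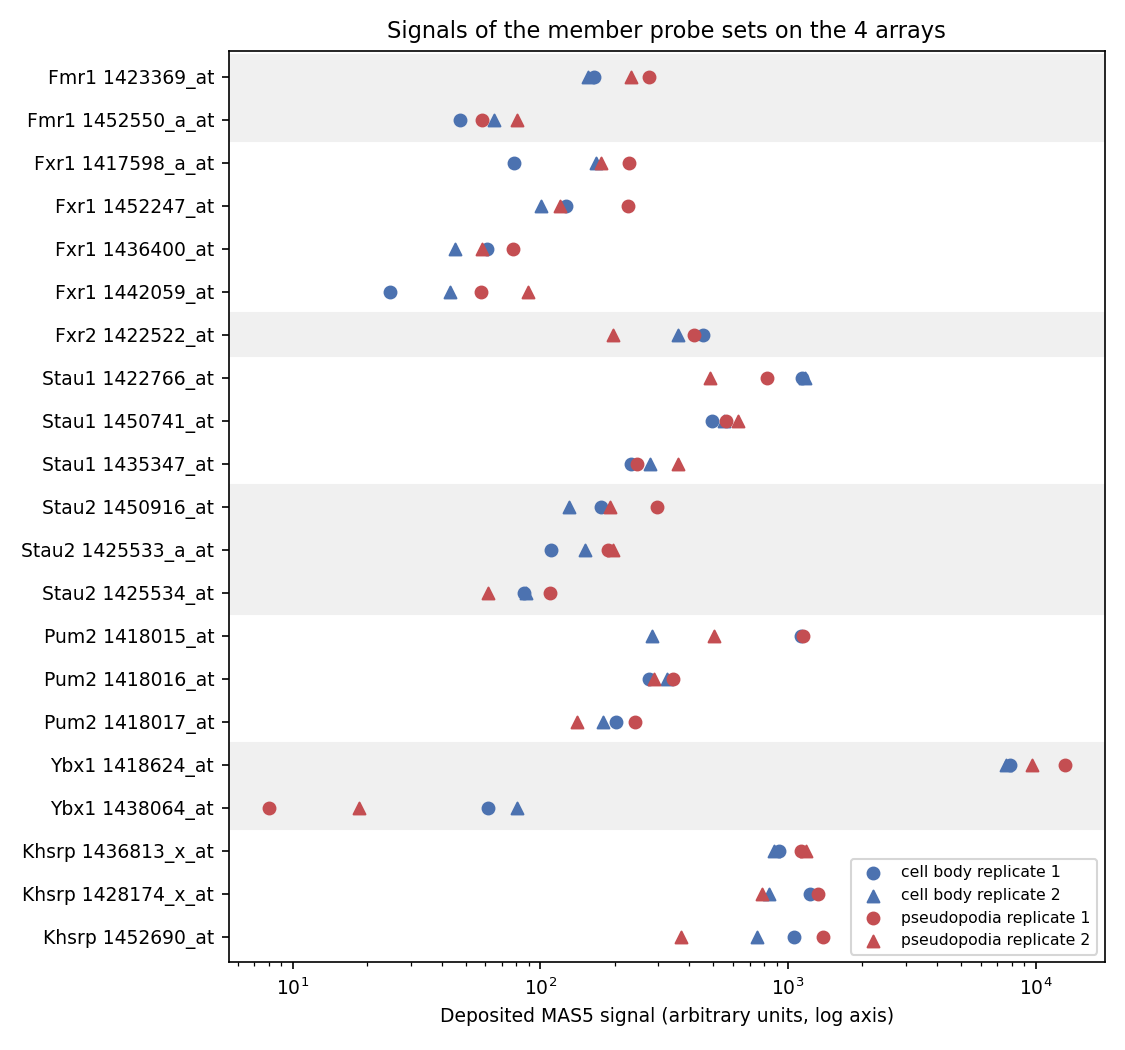
Deposited MAS5 signal (x axis, arbitrary units, log axis) of the 21 member probe sets that passed the filter, one per line and grouped by gene with alternate shading; blue marks cell body and red pseudopodia arrays, circles replicate 1 and triangles replicate 2. The red and blue points are separate in 10 probe sets and interleave in the other 11.

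The replicate numbers also mark the scan day, as the replicate 1 arrays of both fractions were scanned on 1 day and the replicate 2 arrays on another. With the replicate number as a block, 1 of the 21 probe sets passed as higher and 2 as lower, where 6.84% and 11.3% of all probe sets did. These were the brightest probe sets of Ybx1 and Stau1 and the dim one of Ybx1, which passed the filter through its cell body arrays alone, so that the filter partly set its direction. That fit has 1 residual degree of freedom beside 16.8 from the prior, so its p-values rest mostly on a spread shared by all probe sets. Leaving out 1 array also changed the count, although such a fit takes the spread of the lone array from the other fraction. Without pseudopodia replicate 1, 4 of the 21 passed as lower (5.79% of all probe sets higher and 11.8% lower). Without pseudopodia replicate 2, 2 passed as higher and 1 as lower (3.30% and 9.56%). The dim Ybx1 probe set is among the lower ones in both. Without either cell body array 0 passed, as over all probe sets.

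**Figure D2:**
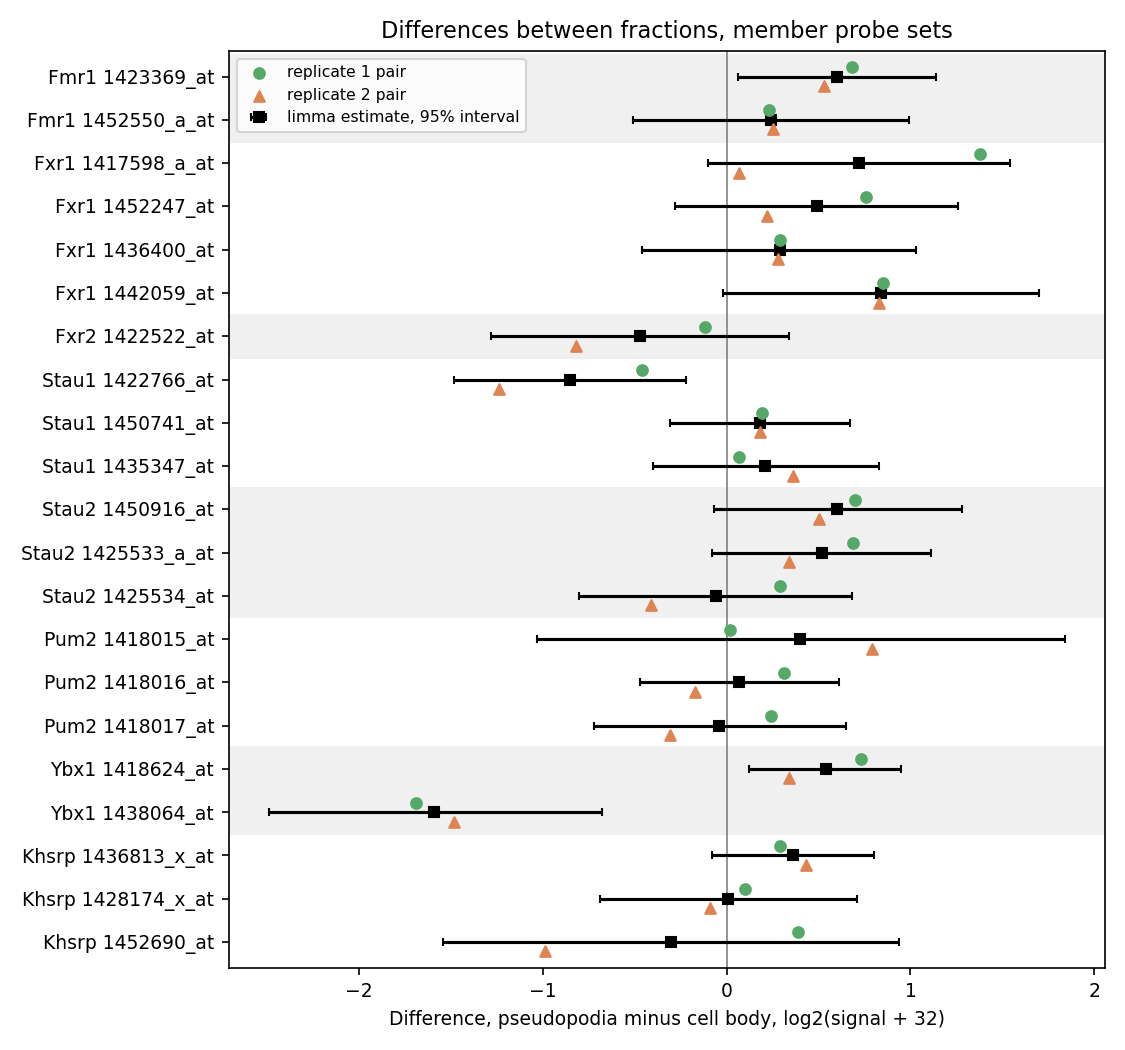
Difference between pseudopodia and cell bodies (x axis, log2(signal + 32) scale) for the same 21 probe sets; squares are the limma estimates with 95% intervals, green circles the replicate 1 pair and orange triangles the replicate 2 pair. The intervals of 4 probe sets leave out 0: 1 of Fmr1, 1 of Stau1 and 2 of Ybx1, the last on opposite sides.

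In the FXR family the RNAs of Fmr1 and Fxr1 stood higher in pseudopodia on every probe set that passed the filter, and that of Fxr2 stood lower on its only one, without any passing. The brightest Fmr1 probe set read 165.1 and 156.1 in cell bodies against 273.7 and 231.8 in pseudopodia. The groups did not overlap, and the 2 cell body arrays were close to each other. The difference was 0.60 ± 0.23, or 1.52-fold (95% interval 0.06 to 1.14, adjusted p = 0.186), with 0.68 in the replicate 1 pair and 0.53 in the replicate 2 pair. A dimmer Fmr1 probe set, of the kind that covers several transcripts of 1 gene (suffix _a_at), gave 47.3 and 65.3 against 58.4 and 80.8, a difference of 0.24 ± 0.32. The last, at 10.8 and 13.3 in cell bodies against 3.8 and 6.2 in pseudopodia, was below the filter and lay the other way. Fmr1 thus kept 1 direction only among its probe sets above the filter.

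Fxr1 was measured by 4 probe sets, all with positive differences and none past the threshold. The brightest read 78.3 and 167.5 in cell bodies against 228.9 and 176.4 in pseudopodia. The groups did not overlap, but most of the separation came from the replicate 1 pair, at 1.38, against 0.07 in the replicate 2 pair. The difference was 0.72 ± 0.35 (interval -0.10 to 1.54, adjusted p = 0.281). A second probe set of similar brightness gave 126.5 and 100.6 against 225.9 and 119.6, again with the larger separation in replicate 1 (0.76, against 0.22). The 2 dimmer ones stood at 0.29 ± 0.32 and 0.84 ± 0.37. The latter gave 24.7 and 43.3 in cell bodies against 57.6 and 89.2 in pseudopodia, with nearly the same value in both pairs (0.85 and 0.83). Its cell body replicate 1 signal lay below the median of that array, 29.8, so the size of this difference is uncertain.

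Fxr2 read 454.1 and 360.1 in cell bodies against 416.6 and 196.9 in pseudopodia. The groups overlapped, and the pseudopodia replicate 2 array stood apart as the lowest. The difference was -0.47 ± 0.35 (interval -1.28 to 0.34, adjusted p = 0.479). It rested on that array: without pseudopodia replicate 2 the value was 0.04, and without pseudopodia replicate 1 it was -0.98 (adjusted p = 0.012). Whether Fxr2 differed from Fmr1 and Fxr1 in its distribution was not tested.

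The Staufen genes had their brightest probe sets on opposite sides. The brightest probe set of Stau1 gave 1141.1 and 1170.5 in cell bodies against 823.6 and 486.0 in pseudopodia. Both pseudopodia arrays were lower, and they differed from each other more than the cell body arrays did. The difference was -0.85 ± 0.27, or 0.554-fold (interval -1.48 to -0.22, adjusted p = 0.12), with -0.46 and -1.24 in the 2 pairs. With the replicate block its adjusted p was 0.00732, and without pseudopodia replicate 1 it was 0.000587 at a difference of -1.22. Without pseudopodia replicate 2 the difference was -0.48 (adjusted p = 0.196), and without cell body replicate 1 or 2 it was -0.87 and -0.83, with adjusted p = 0.482 and 0.433.

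The other Stau1 probe sets did not share this direction. One, which the annotation assigns to the same source sequence as the brightest, gave 491.5 and 552.7 in cell bodies against 561.9 and 627.9 in pseudopodia. Here the pseudopodia arrays were slightly higher and did not overlap with the cell bodies, with a difference of 0.18 ± 0.21. The remaining one gave 233.3 and 277.9 against 246.0 and 360.4, a difference of 0.21 ± 0.26 with overlapping groups. The span from the lowest to the highest Stau1 estimate was 1.07, larger than in 82.5% of the genes with 2 or more probe sets kept. Averaged over its 3 probe sets, Stau1 stood at -0.15. The position of each probe set along the transcript was not analysed here.

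Stau2, known for RNA transport into dendrites of neurons, stood higher in pseudopodia on the brighter of its probe sets. The brightest gave 175.3 and 130.5 in cell bodies against 295.1 and 191.5 in pseudopodia, without overlap. The difference was 0.60 ± 0.29, or 1.52-fold (interval -0.07 to 1.28, adjusted p = 0.275), with 0.70 and 0.50 in the 2 pairs. Without pseudopodia replicate 2 it was 0.89 (adjusted p = 0.0486), and without pseudopodia replicate 1 it was 0.31 (adjusted p = 0.548). The second gave 110.1 and 151.7 against 188.0 and 195.7, also without overlap, at 0.52 ± 0.26. The dimmest, which shares its source sequence with the second, gave 86.3 and 87.2 against 109.0 and 61.6. Its pseudopodia arrays lay on either side of the cell bodies, at -0.06 ± 0.32.

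Pum2 showed no difference that its arrays could resolve. Its brightest probe set gave 1132.9 and 282.8 in cell bodies against 1147.2 and 501.0 in pseudopodia. Both replicate 1 arrays were high and both replicate 2 arrays low, so that most of the spread lay between replicates. The replicate 1 pair differed by 0.02 and the replicate 2 pair by 0.79. The difference was 0.40 ± 0.62, with the widest standard error of all 21 probe sets (interval -1.03 to 1.84, adjusted p = 0.751). With the replicate block the standard error was 0.21 and the adjusted p = 0.214. Without pseudopodia replicate 1 the difference was -0.18, and without cell body replicate 2 -0.57. Of the 2 dimmer probe sets designed on the same source sequence, the first lacked this gap between replicates and the other showed a smaller one. The first gave 274.3 and 326.1 against 343.6 and 287.3, at 0.07 ± 0.23 (interval -0.47 to 0.61). The other gave 201.5 and 178.4 against 241.1 and 140.5, at -0.04 ± 0.30. A further probe set below the filter gave 9.9 and 12.9 in cell bodies against 23.8 and 44.2 in pseudopodia.

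The bright probe set of Ybx1 stood higher in pseudopodia, without passing, and its dim ones stood lower. The bright one gave 7918.0 and 7628.2 in cell bodies against 13139.7 and 9677.1 in pseudopodia. Both pseudopodia arrays were above both cell body arrays, which nearly coincided. The difference was 0.54 ± 0.18, or 1.45-fold (interval 0.12 to 0.95, adjusted p = 0.133), with 0.73 and 0.34 in the 2 pairs. With the replicate block the adjusted p was 0.00834, and without pseudopodia replicate 2 it was 0.00671 at 0.76. Without pseudopodia replicate 1 the difference was 0.32 (adjusted p = 0.274). The value was smaller after quantile normalization, at 0.23. On hybridization controls it was 0.20, where all probe sets moved down together, to a median of -0.32. The RefSeq gene table also lists a pseudogene of Ybx1, Ybx1-ps2, and whether this probe set reads its RNA was not tested.

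Of the dim probe sets, one gave 61.7 and 80.7 in cell bodies against 8.0 and 18.6 in pseudopodia, a difference of -1.59 ± 0.39 (interval -2.49 to -0.68, adjusted p = 0.0638). The probe set passed the filter through its cell body arrays alone, and its pseudopodia signals lay below the median of their arrays, so the filter partly set its direction and the size of the difference is uncertain. The last, at 21.5 and 13.5 against 13.0 and 2.8, was below the filter. Averaged over both probe sets kept, Ybx1 stood at -0.53, a value that rests on the dim one.

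Khsrp was measured by 3 probe sets of nearly equal signal, with differences from -0.30 to 0.36 and none past the threshold. The one that stands for the gene, brightest by a narrow margin in mean log2 signal, gave 919.7 and 878.3 in cell bodies against 1128.5 and 1188.0 in pseudopodia. These groups did not overlap, and the difference was 0.36 ± 0.19, or 1.28-fold (interval -0.08 to 0.80, adjusted p = 0.315). The second, at the same brightness percentile (91.6), gave 1230.2 and 838.7 against 1321.3 and 787.3, with fractions interleaved, at 0.01 ± 0.30. The suffix _x_at of both marks probes that can also bind other transcripts. The third shares the source sequence of the second and gave 1057.5 and 748.8 against 1390.8 and 368.2. Its pseudopodia arrays were the highest and the lowest of the 4, and the difference was -0.30 ± 0.53, with 0.39 in the replicate 1 pair and -0.99 in the replicate 2 pair. Without pseudopodia replicate 1 it stood at -1.24 (adjusted p = 0.00119).

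Probe sets of 1 gene pointed both ways in 5 of the 7 member genes that had 2 or more, namely Stau1, Stau2, Pum2, Ybx1 and Khsrp. For Ybx1 this rests on the dim probe set. Over all genes with 2 or more probe sets kept, 48.1% of 5035 did, and the median span was 0.51, against 0.66 in the members. Among genes with 3 or more, 63.5% did, against 4 of 5 members, and the median span was 0.75, larger than the 0.66 in the members. The replicate pairs had opposite signs in 5 of the 21 probe sets (23.8%, against 30.6% of all probe sets). In all 5 the replicate 1 pair was positive and the replicate 2 pair negative: 2 of Khsrp, 2 of Pum2 and 1 of Stau2. Over all probe sets that order was seen in 3655 and the reverse in 3238.

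**Figure D3:**
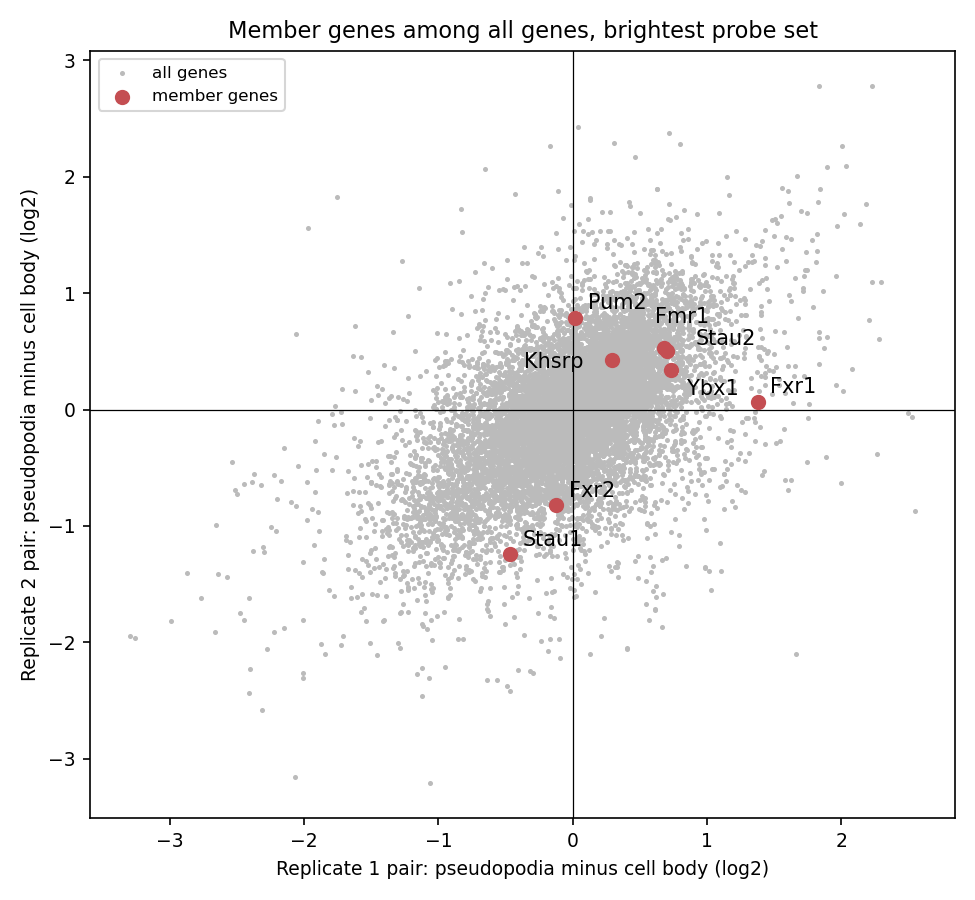
Difference between pseudopodia and cell bodies in the replicate 1 pair (x axis, log2) and the replicate 2 pair (y axis, log2), with 1 grey point for each of 10962 genes by its brightest probe set and red points for the 8 member genes. Of the members, 6 lie at the upper right, Pum2 and Fxr1 near its edges, and Fxr2 and Stau1 in the lower left.

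By their brightest probe sets the 8 genes had a median difference of 0.47, against 0.01 over 10962 genes, and 0.48 and 0.39 in the 2 pairs. Of the 8, 5 had groups that did not overlap with pseudopodia higher and 1 with pseudopodia lower, where 27.4% and 25.2% of all genes did. Khsrp is among the 5 by its brightest probe set, while one of nearly equal brightness overlapped. The median, too, depended on the choice of probe set. With each gene averaged over all its probe sets kept it was 0.08. The scaling of the arrays also moved it. On hybridization controls, an alternative chosen after seeing the data that lowered the median of all probe sets to -0.32, it was 0.14. Of the 21 probe sets 15 had positive differences as reported, 17 after quantile normalization, 14 after median centring and 10 on hybridization controls. Hybridization controls moved all probe sets down together: the median of the 21 was -0.02 there and that of all probe sets -0.32, so the 5 changes of sign (the dimmer Fmr1, both positive ones of Stau1, and 1 each of Pum2 and Khsrp) do not set these probe sets apart. The directions of the brightest probe sets of all 8 genes were the same under these 3 scalings.

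Other proteins of RNA granules were followed in 4 lists with 88 genes, of which 76 had a probe set that passed the filter. Among them 2 RNAs were higher in pseudopodia and none was lower at an adjusted p of 0.05 over genes (limma), where 0.876% of all genes were higher and 1.64% lower. The 2 were Caprin1, a partner of FMRP and of G3bp1 in granules, and Serbp1, an mRNA-binding protein found on ribosomes. The median over the 76 was 0.09, and 0.01 over all genes. It was 0.01 with each gene averaged over its probe sets, and 0.04 to 0.19 without 1 array. On hybridization controls it was -0.21, where the median of all probe sets was -0.32. The count of 2 was 0 with a pseudocount of 1, after quantile normalization, without the variance trend, and on hybridization controls. Leaving out 1 array also moved the count, as it moved the count over all probe sets. With the replicate block 16 were higher and 4 lower, against 7.62% and 9.63% of all genes.

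Of 6 measured relatives and partners of the members 1 passed, 5 had positive values, and the median was 0.52. Caprin1 gave 5152.2 and 5414.9 in cell bodies against 8738.2 and 10298.7 in pseudopodia, without overlap, at 0.84 ± 0.16 or 1.79-fold (adjusted p = 0.0446). None of 5 dimmer Caprin1 probe sets passed, with values of 0.53, 0.11, -0.07, -0.12 and -0.37. Fubp3, of the same family as Khsrp, gave 371.8 and 296.1 against 626.8 and 779.5, at 1.04 ± 0.23 (adjusted p = 0.06). Fubp1, of that family too, stood at -0.16 ± 0.28 with overlapping groups, and a dimmer probe set at -1.45.

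Among 29 measured proteins of transport granules 1 passed, 22 had positive values (5617 of the 10962 genes overall) and the median was 0.34. In 16 the groups did not overlap with pseudopodia higher, and in 3 with pseudopodia lower, where 27.4% and 25.2% of all genes did. Serbp1 gave 6990.1 and 6323.9 in cell bodies against 10935.6 and 11793.4 in pseudopodia, at 0.77 ± 0.15 or 1.71-fold (adjusted p = 0.0467). Its probe set carries the suffix _s_at, for probes shared by transcripts of more than 1 gene, and its 4 dimmer ones that passed the filter stood at 0.67, 0.58, 0.26 and -0.05. Qk, the RNA-binding protein quaking, gave 1916.4 and 1420.1 against 2906.8 and 3486.4, at 0.94 ± 0.21 (adjusted p = 0.0602), with dimmer probe sets between -0.28 and 0.64. At the other end, Cpeb1, of cytoplasmic polyadenylation, stood at -0.71 ± 0.32 (adjusted p = 0.264) and Igf2bp3, of the zipcode-binding family, at -0.38 ± 0.23 (adjusted p = 0.39). Other probe sets of Igf2bp3 lay between -0.72 and 0.60. With the replicate block 11 of the 29 were higher and none lower, against 7.62% and 9.63% of all genes. All counts for this list take each gene by its brightest probe set. Averaging over probe sets moved the median of the 76 related genes from 0.09 to 0.01, and was not done for this list alone.

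Proteins of stress granules, the aggregates that form when translation stops, had 0 of 12 past the threshold and a median of -0.08. Pabpc1, the cytoplasmic poly(A)-binding protein, gave 14695.3 and 15987.8 against 19878.0 and 19737.1, at 0.37 ± 0.13 (adjusted p = 0.156), while its dimmer probe set stood at -1.28. Tia1, a nucleator of these granules, gave 283.5 and 279.9 against 191.3 and 165.1, at -0.62 ± 0.23 (adjusted p = 0.177), with dimmer probe sets between -0.71 and 0.31. Its relative Tial1 stood at 0.27 ± 0.22, and Usp10, a deubiquitinase that binds G3bp1, at -0.29 ± 0.21.

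Proteins of processing bodies and mRNA decay had 0 of 29 past the threshold, 13 positive values and a median of -0.08. Here 6 genes had groups that did not overlap with pseudopodia higher and 11 with pseudopodia lower, against 27.4% and 25.2% of all genes. Zfp36, or tristetraprolin, which targets AU-rich messages for decay, gave 460.1 and 632.2 against 185.7 and 291.1, at -1.16 ± 0.29 (adjusted p = 0.075). Its relative Zfp36l2 stood at -0.73 ± 0.18 (adjusted p = 0.0773), and at 0.31 on a dimmer probe set. Cnot7, a deadenylase, gave 602.1 and 495.2 against 1058.0 and 897.3, at 0.82 ± 0.22 (adjusted p = 0.0865), and Dcp2, the decapping enzyme, stood at 0.47 ± 0.25. With the replicate block 1 was higher and 4 were lower (7.62% and 9.63% of all genes). The 4 lists were not tested against each other.

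**Figure D4:**
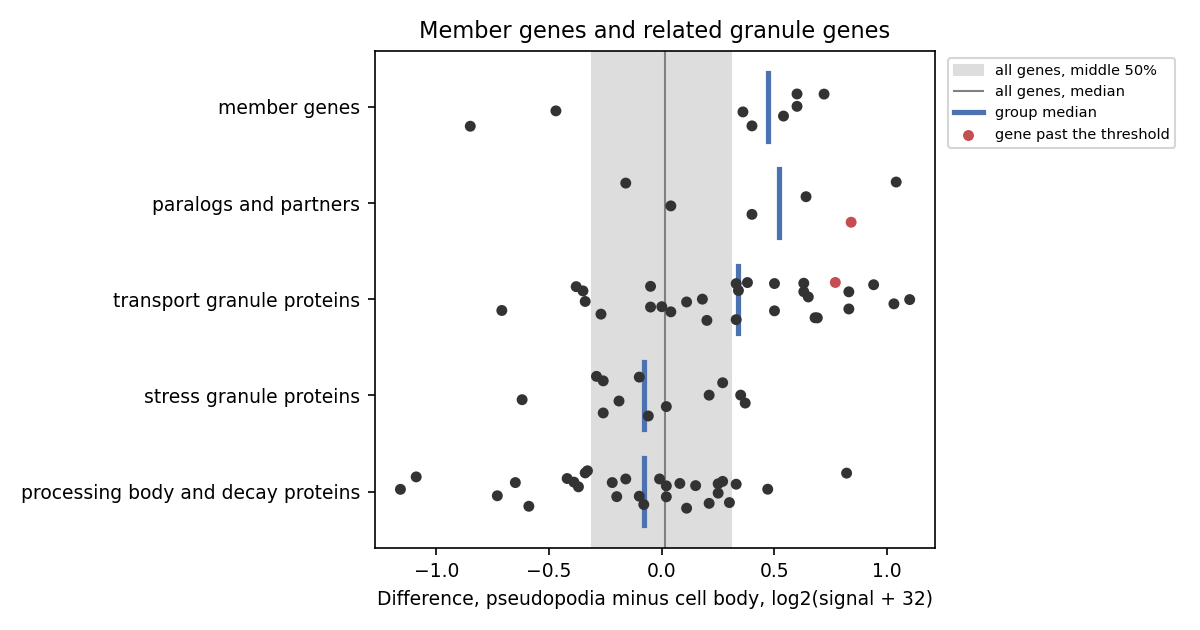
Difference between pseudopodia and cell bodies (x axis, log2(signal + 32) scale) for the 8 member genes and the 4 lists of related genes, 1 point per gene by its brightest probe set, spread vertically for visibility; blue bars are medians, red points pass the threshold, and the grey band holds the middle 50% of all genes. The medians are 0.47, 0.52, 0.34, -0.08 and -0.08 from top to bottom.

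The genes whose 4 values, centred on their own mean, lay closest to those of Fxr1 were 2610008E11Rik, Sema4f and Ifit3, at root mean square distances of 0.0689, 0.0698 and 0.0813 on the log2 scale. Closest to Stau1 were Laptm4a, Thbs2 and Tsc22d3, at 0.0253, 0.036 and 0.038, with differences of -0.89, -0.90 and -0.93. Fxr1 and Stau1 were taken as the members with the highest and the lowest difference. With 4 arrays and 10962 genes such neighbours are a description of these arrays only.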

How the data were processed

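The deposited values are linear intensities that the authors computed with MAS5, named in the submitters' processing notes; version and target are not given in the sources used here. A 2% trimmed mean of 250.0 on every array shows that the authors scaled them. MAS5 subtracts mismatch signal, so dim probe sets are noisy. Fixation in 0.3% formaldehyde for 10 min and its reversal at 70 °C for 45 min, per the labels, could affect RNA integrity.

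Each array was rescaled (trimmed mean 500) before log2(signal + 32) was taken. Probe sets with a mean log2 value at or above the median were kept (22519). Of these, 19352 had 1 symbol and gave 10962 genes, so shares over probe sets and over genes have different bases. The comparison used limma 3.58.1 under R 4.3.3 (lmFit, then eBayes with trend), two-sided, and p-values were adjusted by Benjamini-Hochberg to a threshold of 0.05; the fit was tested on simulated data. An exact permutation test of 2 against 2 cannot go below 0.333 and was not run. In the related lists the brightest probe set was read for each gene, with p adjusted over genes. Alternatives in pseudocount, filter, scaling, variance trend, pairing, probe set choice and arrays used were tried.

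The members, lists and tests were chosen with earlier results of these data known. Besides every member probe set, the genes named are up to 2 at each end of each related list by moderated statistic, those past the threshold, Kif1c, Neat1, cell type markers, and the 3 nearest genes to the highest and lowest member. Same-numbered arrays are paired by the scan day that the file headers give: replicate 2 minus replicate 1 differences of the fractions correlated across probe sets with r = 0.243, which are not independent replicates. Precision is limited by the number of arrays. No genome was used, and sequences of the probes and proteins were not used here.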

Additional observations from a re-analysis of the deposited data

How the results depend on the processing

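Of 127 values for single genes under the alternatives, 109 counted as unchanged. These kept their direction and side of the threshold or, for single pairs, their direction while moving by less than the limma standard error. As no member passed as reported, this count does not measure how stable the sizes were. Stau1 averaged over probe sets, at -0.15 against -0.85, counted as unchanged. The replicate block, the variance trend and the filters left each estimate itself as it was. Reversed were Fxr2 without pseudopodia replicate 2 (0.04), Pum2 without pseudopodia replicate 1 (-0.18) or cell body replicate 2 (-0.57), where values without 1 array ran from -0.98 to 0.04 for Fxr2 and from -0.57 to 1.38 for Pum2, and Ybx1 averaged over probe sets (-0.53). With the replicate block 1 member probe set passed as higher and 2 as lower, where 6.84% and 11.3% of all probe sets did. On hybridization controls 1 passed as lower, the dim one of Ybx1 that passed the filter through its cell body arrays alone. There the median of all probe sets was -0.32, and the share of all probe sets that passed was not counted. The median over member genes was 0.39 in the replicate 2 pair, 0.08 averaged over probe sets, 0.14 on hybridization controls, and 0.31 to 0.74 without 1 array. Related genes passing as higher numbered 0 with a pseudocount of 1, after quantile normalization, without the variance trend and on hybridization controls, 16 with the replicate block, and 0 to 11 without 1 array. Those passing as lower numbered 1 after quantile normalization, 4 with the replicate block, 2 on hybridization controls, and 0 to 5 without 1 array. The related median was 0.13 in the upper quartile of probe sets by brightness, 0.07 after median centring and 0.12 in the replicate 2 pair. It was 0.01 averaged over probe sets and 0.04 to 0.19 without 1 array. On hybridization controls it was -0.21, where the median of all probe sets was -0.32. Causes were not tested. Without the variance trend limma called 0 of all probe sets (4487 at an unadjusted p under 0.05). Fxr1 has no value in that quartile, where its probe set was left out. Signal close to background limits the dim probe sets of Fmr1, Fxr1, Pum2 and Ybx1.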
